A study of Homo sapiens with 12 samples.

Results

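Replication-dependent histone genes encode the proteins around which newly copied DNA is wrapped. H2A, H2B, H3 and H4 form the core of the nucleosome, and H1 binds the DNA that enters and leaves it. Each protein is made from many gene copies, most of them clustered on chromosome 6, that are transcribed mainly while DNA is replicated. Their messenger RNAs usually end in a conserved stem-loop in place of a poly-A tail. The stem-loop binding protein SLBP recognises it, and NPAT drives transcription of these genes at the start of S phase. Some copies can also yield longer transcripts that run past the stem-loop and end in a poly-A tail, a form described in differentiated and slowly dividing cells.

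The 65 genes described here are all protein-coding entries of the deposited table, out of 60664 genes, whose symbols are H1-1 to H1-5, or H2AC, H2BC, H3C or H4C followed by a number. They comprise 5 genes of H1, 16 of H2A, 17 of H2B, 13 of H3 and 14 of H4. On GRCh38, 54 of them lie between positions 25726063 and 27893891 of chromosome 6, together with 21 other protein-coding genes, and 11 lie on chromosome 1.

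RNA was sequenced in Huh7 and MHCC97H, established lines of human hepatocellular carcinoma, with 3 libraries in each of 4 groups. Huh7 received either a control mimic, with the genotype given as WT, or synthetic RNA that mimics the microRNA miR-628-3p, with the genotype given as its overexpression. MHCC97H carried either an empty vector, also labelled WT, or the vector pGreen-628, labelled as overexpressing miR-628-3p. No further treatment is named for any group, nor the promoter of the vector, the number of cell clones or the time of harvest. Line and way of delivery change together. The labels do not say that the libraries of a group came from separate cultures, so p-values measure only the spread between these libraries.

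Poly-A RNA was selected with oligo(dT), and the libraries kept the strand. Levels are given as FPKM, fragments scaled to exon length and to all fragments counted, with the SD of 3 libraries after ±. Read numbers were recovered from FPKM and exon length, with totals between 16472932 and 19578875 per library. Of 14 hepatocyte markers, 14 reached a mean of 1 FPKM in both Huh7 groups, 10 in the MHCC97H vector group and 11 with miR-628-3p, with GPC3 at 0 in all 6 MHCC97H libraries. Of 14 fibroblast, endothelial and leukocyte markers, LUM was the highest, at a mean of up to 56.9 FPKM in Huh7, and PECAM1 reached 7.35 in MHCC97H. MIR628 had 0 reads in every library, which allows up to 3 reads per library, so the rise of the microRNA itself was not measured here.

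The sequences that bear on detection in poly-A libraries are the stem-loop and what follows it. In the annotated transcripts of GENCODE release 29, 63 of the 65 genes were matched and 27 held the 16-base stem-loop. Those of the detected genes H2AC6, H2BC5 and H4C8, and of H2AC11, which differs from them, are shown from 5′ to 3′ as DNA, with the paired stem in capitals and the loop in lower case.

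H2AC6: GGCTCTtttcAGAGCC

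H2BC5: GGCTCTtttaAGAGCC

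H4C8: GGCCCTtttcAGGGCC

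H2AC11: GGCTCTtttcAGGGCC

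The form of H2AC6 was found in 15 genes, all of H2A, H2B or H3, that of H2BC5 in 4 and that of H4C8 in 4, all of them H4 genes. In 19 genes an annotated transcript ran on for at least 100 bases after the stem-loop, by 1128 bases in H2AC6, 1655 in H4C8 and 1729 in H2BC21, and by 116 in H2BC4. Of these 19 genes 9 reached a mean of 1 FPKM in some group. Of the 8 genes whose transcript with the stem-loop ended within 100 bases of it 2 did so, among them H2BC5, at 39 bases. These lengths were read only from transcripts that hold the stem-loop. H2BC5 has 2 annotated transcripts, and its entry in the deposited table runs from 26158146 to 26171349, so it may have other ends further on. Of the 36 with no stem-loop in any annotated transcript 10 did so. For those 36 the absence says only that the annotated model does not hold these letters.

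Promoters are shown for the 3 genes with the most reads and for H4C8, the gene that differed most between MHCC97H groups. Each run is the 250 bases before the RefSeq start on GRCh38.p14, written 5′ to 3′ along the gene, with matches to the searched motifs in capitals. The motifs, on either strand, were the octamer ATTTGCAT, bound by OCT1 in H2B genes, CCAAT, the TATA box TATAAA, and AAACACA, an element of H1 promoters. Neighbouring matches can touch or overlap and then form 1 run of capitals.

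H2BC12, chr6:27146859-27147108, minus strand: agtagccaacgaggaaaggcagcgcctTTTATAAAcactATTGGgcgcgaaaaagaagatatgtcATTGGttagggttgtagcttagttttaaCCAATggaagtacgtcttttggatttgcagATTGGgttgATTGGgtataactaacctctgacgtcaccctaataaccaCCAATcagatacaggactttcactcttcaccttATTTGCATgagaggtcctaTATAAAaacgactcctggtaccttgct

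H2AC6, chr6:26123922-26124171, plus strand: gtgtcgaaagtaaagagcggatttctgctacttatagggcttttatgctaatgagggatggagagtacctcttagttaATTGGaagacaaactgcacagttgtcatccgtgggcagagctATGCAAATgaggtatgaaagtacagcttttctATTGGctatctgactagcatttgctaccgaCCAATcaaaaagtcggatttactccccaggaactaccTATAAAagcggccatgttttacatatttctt

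H1-2, chr6:26056471-26056720, minus strand: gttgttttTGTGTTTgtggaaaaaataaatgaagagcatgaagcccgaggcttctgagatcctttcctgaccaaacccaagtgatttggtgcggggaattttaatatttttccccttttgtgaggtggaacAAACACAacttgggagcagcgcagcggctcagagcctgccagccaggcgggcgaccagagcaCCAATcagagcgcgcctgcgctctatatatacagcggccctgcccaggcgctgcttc

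H4C8, chr6:26285535-26285784, minus strand: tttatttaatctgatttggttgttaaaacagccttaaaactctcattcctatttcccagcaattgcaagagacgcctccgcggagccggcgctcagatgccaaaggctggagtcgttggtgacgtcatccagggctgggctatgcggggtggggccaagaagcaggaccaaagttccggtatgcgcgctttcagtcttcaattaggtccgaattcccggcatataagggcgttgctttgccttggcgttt

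The window of H2BC12 held 1 octamer, 6 CCAAT and 3 TATAAA matches. That of H2AC6 held 1 octamer, 3 CCAAT and 1 TATAAA, and that of H1-2 held 1 CCAAT and 2 AAACACA. None of the 4 motifs was in the H4C8 window, which says only that these letters are not in these 250 bases. The deposited table places the upstream end of H4C8 at 26285638, inside this window, so the start used here is not the one used for its exons.

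Promoters were available for 60 of the 65 genes. The octamer was in 11 of 15 H2A and 14 of 17 H2B promoters, 1 of 11 of H3 and 0 of H1 and H4. These are not all separate matches, since windows of H2A and H2B genes that point apart can overlap. The window of H2BC4 (chr6:26123927-26124176) is almost that of H2AC6 on the other strand. The same octamer, CCAAT or TATAAA match then counts for both genes. The H3 match is that of H3C4, whose RefSeq window is the same as that of the H2A gene H2AC7 and lies apart from the H3C4 entry of the deposited table, so it was counted under both classes. The octamer was in 1.63% of all 35116 promoters. CCAAT was in every H1, H2A, H2B and H3 promoter and in 3 of 12 of H4, against 32.0% of all. TATAAA was in 68.3% of the histone promoters and 10.7% of all. AAACACA was in 5 of 5 H1 promoters, in 0 of the other classes and in 4.82% of all.

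In these poly-A libraries most histone genes were barely seen and a few were abundant. At least 1 read was found for 63 of the 65 genes, and H2BC1 and H4C6 had 0 reads in each library, which allows up to 3 reads per library. In every library 35 genes stayed under 10 reads, while 10 genes reached 100 reads in at least 1 library. A mean of 1 FPKM in some group was reached by 23 genes, 10 of H2B, 4 of H2A and 3 each of H1, H3 and H4. Of the histone reads pooled over all 12 libraries, the H2B gene H2BC12 gave 32.0%, H2BC12 and H2AC6 together 52.9%, and with the linker histone gene H1-2 71.9%. The 10 genes with the most reads gave 94.3% of this pool. By group, H2BC12 gave 36.7% and 37.0% in Huh7 without and with miR-628-3p, and 17.3% and 11.3% in MHCC97H. H4C8 gave 31.1% in MHCC97H with miR-628-3p.

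**Figure D1:**
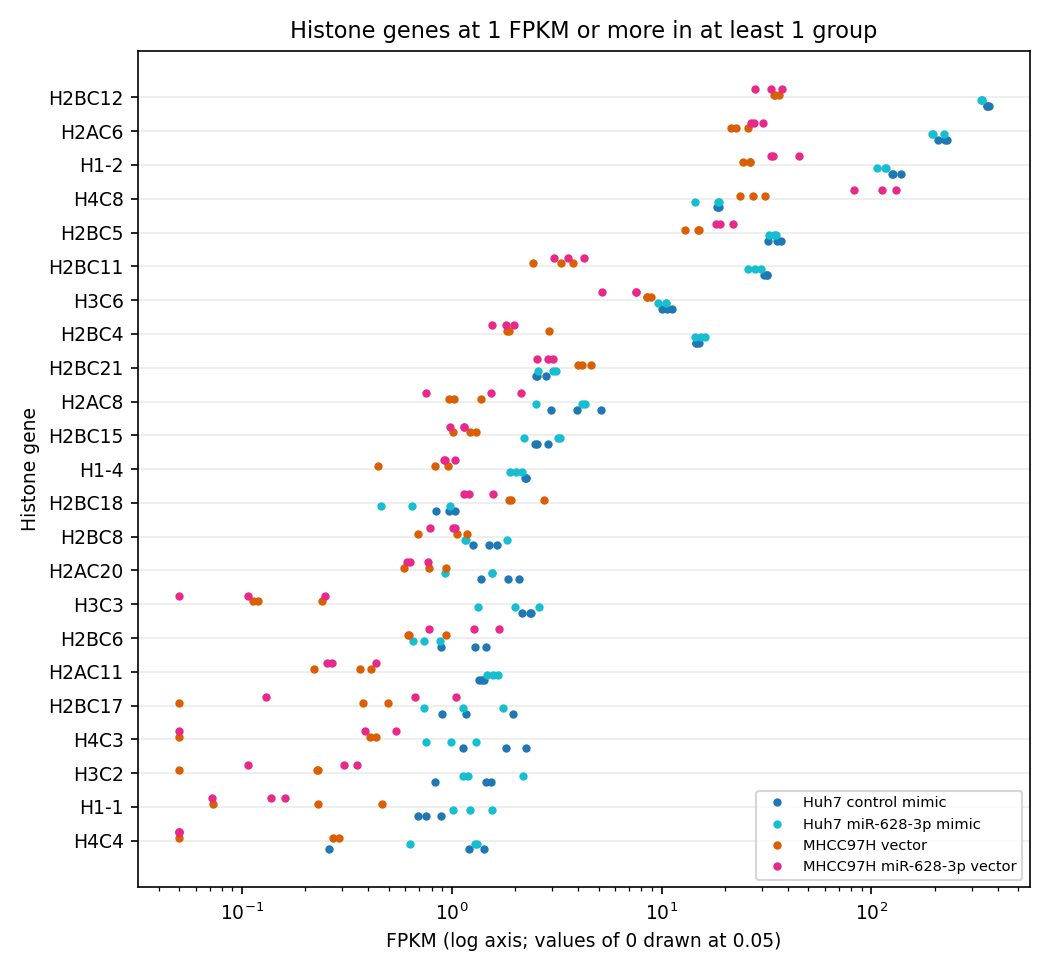
FPKM of the 23 histone genes with a mean of at least 1 FPKM in some group, on a log axis, with 1 point per library, coloured by group. H2BC12 lies between 333 and 364 FPKM in the Huh7 libraries and between 27.9 and 37.3 in those of MHCC97H.

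The FPKM of a histone gene also depends on the exon length assigned to it. The table used 409 bases for H4C8, 519 for H2AC6 and 495 for H2BC12, whereas all annotated exons of GENCODE 29 together span 2163, 1668 and 381 bases. For 10 of the genes the annotated length was well above the one used. In RPM, reads scaled to a fixed library total, divided by the kilobases of annotated exon and averaged over the 12 libraries, H2BC12 was at 248, H1-2 at 87.3, H2AC6 at 37.0, H2BC5 at 23.3, H2BC11 at 8.33 and H4C8 at 8.21. On this scale H1-2 stood above H2AC6, the reverse of their order in FPKM in the Huh7 groups. This scale sets the same reads against other lengths, and the exons over which they were counted are not given. For H2BC12, and for H1-2 at 642 against 731 bases, the annotated length is below the one used, which raises both. The length also sets which genes reach 1 FPKM and how far adding 1 before the log2 shrinks a difference.

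Copies that are alike in sequence can share reads, and the labels do not say how reads with several matches were treated. Of the 65 genes 18 shared a stretch of 100 bases with another of them, and in 12 at least 50% of such stretches were shared, such as H4C14 with H4C15 and H2AC18 with H2AC19. H2BC12, H2AC6, H1-2, H2BC5, H4C8 and H2BC11 shared none. H2BC5 and H2BC18 each overlap 2 other annotated genes, 1 of them on the same strand. Among these are LARP1P1 for H2BC5, on its own strand, and FCGR1A for H2BC18. The labels do not say whether counting used the strand, which would not part genes on the same strand.

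To compare the levels without miR-628-3p, the 3 MHCC97H vector libraries were set against the 3 Huh7 control mimic libraries. Line and kind of control cannot be told apart in this comparison, and in bulk RNA neither can fewer cells making a transcript and less of it per cell. All histone genes together took 499, 470 and 486 RPM in the Huh7 controls and 101, 96.5 and 105 in the MHCC97H vector libraries. All 17 genes tested were called, 14 lower and 3 higher in MHCC97H, by limma with a Benjamini-Hochberg adjusted p under 0.05. Among all genes tested 84.5% were called, 42.2% lower and 42.3% higher. The median log2 difference of the 17 was -1.09, against 0.0033 over all genes tested. A gene tested here only because it is high in one line had to differ, so neither count nor median measures the 65 genes as a family.

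H2BC12 was at 364, 356 and 356 FPKM in the Huh7 controls and at 36.4, 34.4 and 34.9 in MHCC97H. This was a log2 difference of -3.31 (SE 0.036, limma adjusted p = 4.2e-10). The H2A gene H2AC6 was at 223, 207 and 228 FPKM in Huh7 and at 22.7, 21.4 and 25.8 in MHCC97H. The 2 core histone genes with the highest FPKM in these poly-A libraries of Huh7 were thus both lower in every MHCC97H control library. For H2AC6 the log2 difference was -3.18 (SE 0.072, limma adjusted p = 1.2e-08).

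H1-2, a linker histone gene, was at 139, 125 and 126 FPKM in Huh7 and at 24.4, 26.3 and 26.3 in MHCC97H (limma log2 difference -2.29, adjusted p = 1.5e-08). The linker histone gene H1-4 was at 2.25, 2.25 and 2.24 FPKM in Huh7 and at 0.446, 0.960 and 0.835 in MHCC97H. Both linker genes were lower in all 3 vector libraries.

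The H2B genes did not move alike. H2BC11 was at 31.7, 31.6 and 30.6 FPKM in Huh7 and at 3.78, 2.42 and 3.31 in MHCC97H, and H2BC4 at 14.6, 14.7 and 15.1 against 1.86, 2.91 and 1.83. H2BC5 was closer, at 37.0, 32.0 and 35.5 FPKM in Huh7 and 14.9, 12.9 and 15.0 in MHCC97H, as was H2BC15, at 2.48, 2.88 and 2.54 against 1.22, 1.01 and 1.30. All of these were lower in MHCC97H, with limma log2 differences of -2.97 for H2BC11, -2.32 for H2BC4, -1.23 for H2BC5 and -0.74 for H2BC15. H2BC8 was lower as well (-0.33, limma adjusted p = 0.028). H2BC21 and H2BC18 were higher in MHCC97H. H2BC21 was at 2.52, 2.55 and 2.79 FPKM in Huh7 and at 4.00, 4.16 and 4.62 in MHCC97H, and H2BC18 at 0.971, 0.836 and 1.03 against 2.75, 1.86 and 1.92. Both lie on chromosome 1, as does H2AC20, which was lower in MHCC97H (limma log2 difference -0.64, adjusted p = 0.0015).

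H4C8 was the third gene that was higher in MHCC97H. It was at 18.6, 18.4 and 18.8 FPKM in the Huh7 controls and at 27.3, 23.6 and 31.2 in the vector libraries (limma log2 difference 0.53, SE 0.091, adjusted p = 0.0010). H3C3 was at 2.35, 2.15 and 2.37 FPKM in Huh7 and at 0.241, 0.120 and 0.113 in MHCC97H, and H2AC8 at 5.16, 2.97 and 3.94 against 1.38, 1.03 and 0.969. For each of the 17 genes the 2 groups did not overlap, as for 85.5% of all genes tested.

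**Figure D2:**
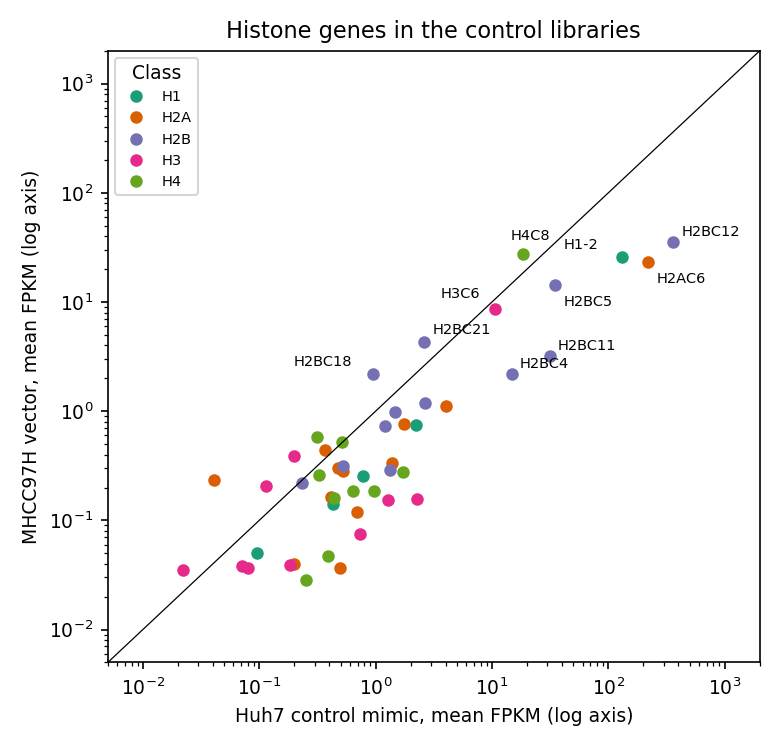
Mean FPKM of each histone gene in the Huh7 control mimic libraries (horizontal, log axis) and the MHCC97H vector libraries (vertical, log axis), coloured by class, with the line of equal levels; genes at 0 in either group are not drawn. H2BC12, H2AC6, H1-2, H2BC11 and H2BC4 lie far below the line, and H4C8, H2BC21 and H2BC18 lie above it.

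In FPKM the order of the genes differed between the lines. In Huh7 controls H2BC12, H2AC6 and H1-2 led without overlap, followed by H2BC5 at 34.9 ± 2.58 and H2BC11 at 31.3 ± 0.630 FPKM. In MHCC97H H2BC12 led at 35.2 ± 1.05 FPKM, and H4C8 at 27.4 ± 3.80, H1-2 at 25.7 ± 1.09 and H2AC6 at 23.3 ± 2.24 overlapped. Both orders rest on the exon lengths used. With the same reads set against the length of all annotated exons, the vector group means differed. They were 45.8 for H2BC12, 29.2 for H1-2, 12.9 for H2BC5, 7.24 for H2AC6 and 5.18 for H4C8. By reads H1-2 led in this group, with 18.6% of histone reads against 17.3% for H2BC12. The first 4 genes by read number in all libraries, H2BC12, H2AC6, H1-2 and H2BC5, gave 85.4% of histone reads in Huh7 controls and 59.1% in the MHCC97H vector group.

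Neighbours read from opposite strands differed in level to different degrees. There were 11 pairs of histone genes with starts within 500 bases of each other, pointing apart. In 4 pairs both genes reached a mean of 1 FPKM in some group, in 3 pairs 1 gene did and in 4 pairs neither did. H2BC17 was counted in its pair with H2AC17 and again in its pair with H3C12, and was the gene seen in both. H2AC17 and H3C12 overlap on the same strand. H2BC12 and H2AC12 start 251 bases apart and stood at 359 and 0.416 FPKM in Huh7 controls. H2BC11 and H2AC11, 247 bases apart, stood at 31.3 and 1.39 FPKM. H2BC4 and H2AC6, 219 bases apart, stood at 14.8 and 219 FPKM. The other 2 pairs with both genes seen were closer, with H2BC21 and H2AC20 at 2.62 and 1.77 FPKM and H2BC8 and H2AC8 at 1.47 and 4.02.

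**Figure D3:**
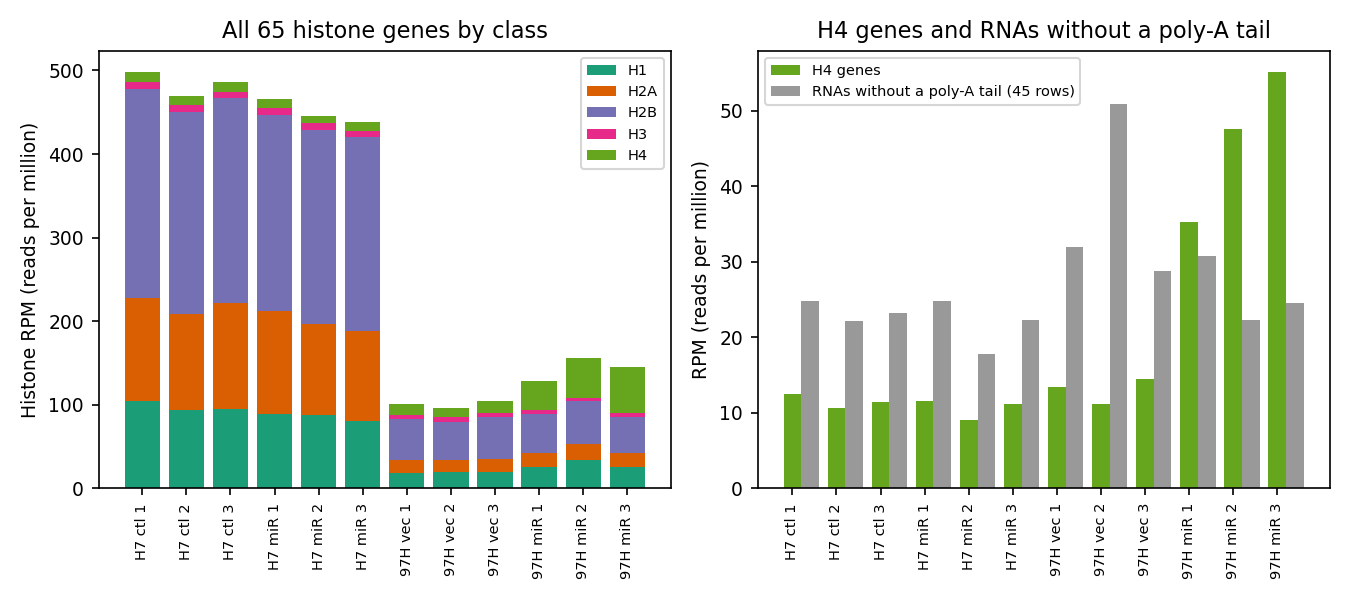
Left, RPM from all 65 histone genes in each of the 12 libraries, stacked by class. Right, RPM of the H4 genes beside those of listed RNAs that carry no poly-A tail, a sum that leaves out abundant RNAs of this kind. The H4 genes are at 35.3, 47.6 and 55.2 RPM in the MHCC97H libraries with miR-628-3p and at 14.5 or less in the other 9, and the RNAs without a tail are at 17.8 to 50.9.

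The next comparison, which uses the same vector libraries again, asks what changed in MHCC97H with the vector for miR-628-3p. Of the 65 histone genes 12 had a mean of at least 1 FPKM and were tested, and 53 were not. The H4 gene H4C8, the linker gene H1-2 and the H2B gene H2BC5 rose, and the H2B gene H2BC21 fell. That is 4 of 12 called, against 5.37% of all genes tested, with 2.32% of all genes called higher and 3.05% called lower. The groups did not overlap for 7 of the 12, against 30% of all genes tested. The median log2 fold change of the 12 was 0.050, against -0.039 over all genes, with 6 positive and 6 negative.

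H4C8 (ENSG00000158406, chr6:26277609-26285638) was at 27.3, 23.6 and 31.2 FPKM with the empty vector and at 82.3, 112 and 131 with miR-628-3p. The log2 fold change was 1.93 (SE 0.17, limma adjusted p = 0.0020). The lowest library with miR-628-3p lay above the highest vector library. The reads behind these values were 191, 166 and 233 with the vector and 557, 880 and 985 with miR-628-3p.

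H4C8 gave most of the H4 reads. Its share was 85.8% ± 2.27 in the vector group and 96.2% ± 1.07 with miR-628-3p, a share that also moves with H4C8 itself. The other 13 H4 genes together had 38, 27 and 32 reads in the vector libraries and 28, 36 and 27 with miR-628-3p, and these ranges overlap. None of those 13 was tested in MHCC97H, so their separate changes were not measurable at this depth.

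H1-2 (ENSG00000187837, chr6:26055740-26056470) was at 24.4, 26.3 and 26.3 FPKM with the vector and at 33.3, 45.4 and 34.0 with miR-628-3p (limma log2 fold change 0.52, SE 0.12, adjusted p = 0.049). H2BC5 (ENSG00000158373, chr6:26158146-26171349) was at 14.9, 12.9 and 15.0 FPKM and at 19.0, 21.9 and 18.2 (0.44, SE 0.093, adjusted p = 0.040). For both genes all 3 libraries with miR-628-3p lay above all 3 vector libraries. H2BC21 (ENSG00000184678, chr1:149884459-149886652) was at 4.00, 4.16 and 4.62 FPKM and at 2.86, 3.03 and 2.54 (limma log2 fold change -0.47, SE 0.088, adjusted p = 0.027), lower in each library with miR-628-3p. The calls of these 3 genes were lost without the expression filter, at adjusted p of 0.131 for H1-2, 0.102 for H2BC5 and 0.0814 for H2BC21, and without any of the vector libraries or without miR-628-3p library 1, where H4C8 alone was called.

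H2BC12, the leading gene of both control groups in FPKM, was at 36.4, 34.4 and 34.9 FPKM with the vector and at 33.1, 37.3 and 27.9 with miR-628-3p. These groups overlapped, and the limma log2 fold change was -0.11 (SE 0.10, adjusted p = 0.57). H2AC6 was at 22.7, 21.4 and 25.8 FPKM and at 26.5, 30.4 and 27.4 (0.26, SE 0.087, limma adjusted p = 0.13). H2BC11 was at 3.78, 2.42 and 3.31 FPKM and at 4.28, 3.57 and 3.07 (0.16, SE 0.15, limma adjusted p = 0.58). Among other uncalled genes, log2 fold changes were -0.46 for H2BC18 (adjusted p = 0.096) and -0.33 for H3C6 (adjusted p = 0.19), and H2BC4, H2AC8 and H2BC15 lay between -0.19 and 0.19.

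In FPKM H4C8 came first in MHCC97H with miR-628-3p, at 108 ± 24.7 FPKM, followed by H1-2 at 37.6 ± 6.77, H2BC12 at 32.7 ± 4.71 and H2AC6 at 28.1 ± 2.00. This order rests on the exon lengths used. With the same reads set against the length of all annotated exons, the group means were 20.5 for H4C8, 42.8 for H1-2 and 42.5 for H2BC12. The exons over which reads were counted are not given, so neither order is settled. All histone genes took 129, 156 and 145 RPM, above each vector library. Without H4C8 the 64 others took 95.4, 110 and 91.6 RPM with miR-628-3p and 90.3, 86.8 and 91.8 with the vector, and these ranges overlap.

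**Figure D4:**
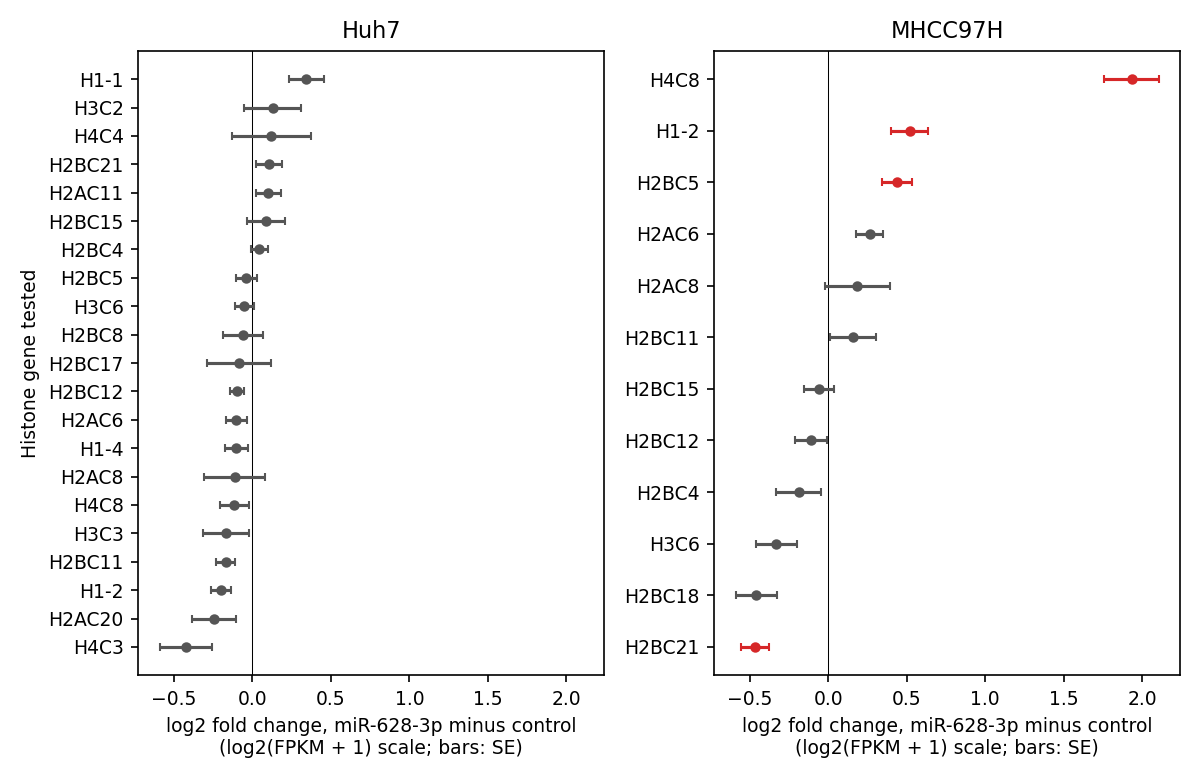
log2 fold change of each tested histone gene on the log2(FPKM + 1) scale, miR-628-3p minus control, with its standard error, in Huh7 (left, 21 genes) and MHCC97H (right, 12 genes); red marks an adjusted p under 0.05. H4C8 stands at 1.93 in MHCC97H, while the Huh7 genes lie between -0.42 and 0.34.

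RNAs without a poly-A tail were counted beside these levels, since most histone messages lack one. In 45 rows for such RNAs the sum was 32.0, 50.9 and 28.8 RPM in the vector libraries and 30.7, 22.4 and 24.5 with miR-628-3p. These ranges overlap, and the highest value is that of 1 vector library. RN7SK, RMRP, RPPH1 and SCARNA2 were listed at 0 in all 12 libraries, so the sum leaves out abundant RNAs of this kind. Its part in the levels of H4C8 was not tested. The small nucleolar RNA SNORA73B fell from 5.14 ± 0.587 to 1.49 ± 0.765 FPKM (limma adjusted p = 0.012). The 49 histone genes with a mean under 1 FPKM over all libraries summed to between 5.53 and 15.2 RPM, highest in Huh7.

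Genes that make, process and degrade histone messages were counted in MHCC97H as well, where 5.37% of all genes were called, so that few or no calls would be seen in any list of this size. None of 25 genes of histone transcription and 3′ end processing was called by limma, with 1 at an unadjusted p under 0.05 and 0 by voom. SLBP averaged 37.0 ± 1.87 FPKM in the vector group and 34.9 ± 0.722 in the other, and NPAT 4.90 ± 0.394 and 4.96 ± 2.01. None of 16 genes of histone message decay was called (2 unadjusted, 0 by voom), nor any of 10 polyadenylation factors (0 and 0). The same held for 22 histone chaperones (2 and 0) and for 12 genes of a list made mostly of variant histones (3 and 0). The replication machinery and other S-phase genes gave 0 calls among 24 tested, 5 at an unadjusted p under 0.05 and 0 by voom, with a median log2 fold change of 0.021. Of 7 CDK inhibitors, which slow entry into S phase, CDKN1C and CDKN2C rose and CDKN2B fell, with 5 at an unadjusted p under 0.05, 5 called by voom and a median log2 fold change of 0.28. None of the 11 tested protein-coding neighbours within the chromosome 6 interval was called (0 unadjusted, 0 by voom).

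**Figure D5:**
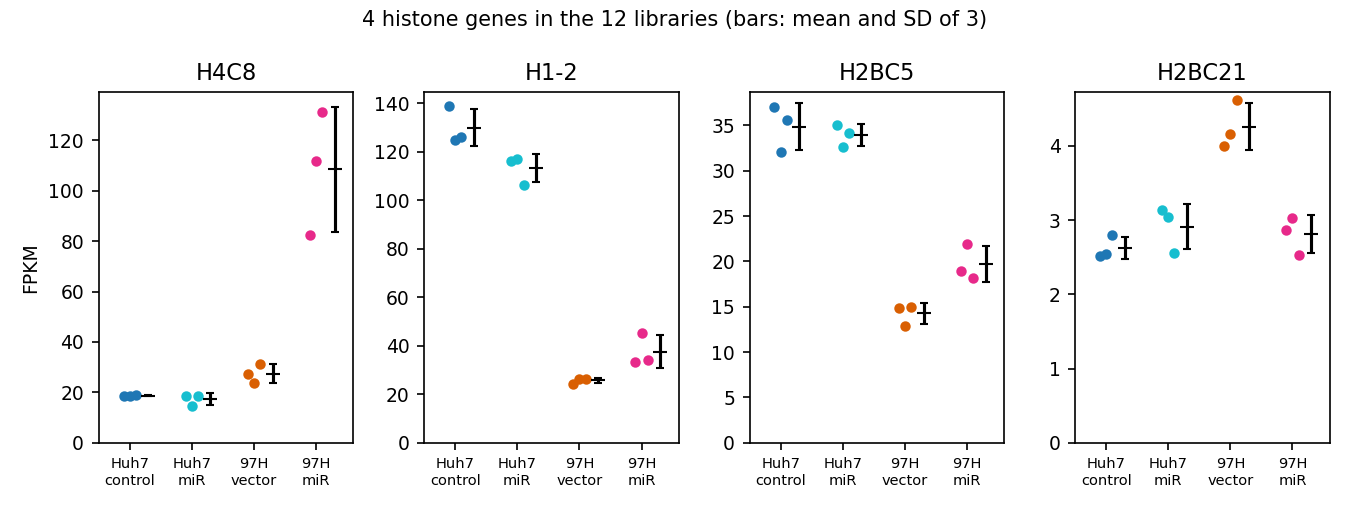
FPKM of H4C8, H1-2, H2BC5 and H2BC21 in each of the 12 libraries (points) with the mean and SD of 3 libraries (bars); each vertical axis starts at 0, and 97H stands for MHCC97H. With miR-628-3p in MHCC97H, H4C8 is at 82.3 to 131 FPKM, against 14.5 to 31.2 in the other 9 libraries.

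To ask the same of Huh7, mimic and control mimic libraries were compared. Of the 65 histone genes 21 were tested and 44 were not. None was called by limma, against 21.1% of all genes tested, 6.75% higher and 14.4% lower. That share over all genes is not stable, at 0 to 1661 called genes with a library left out and 1 of 12452 after a correction for GC content and length. There were 4 histone genes at an unadjusted p under 0.05, and voom on the recovered reads called 0. The groups did not overlap for 6 of the 21, against 48.8% of all genes. The median log2 fold change of the 21 was -0.084, against -0.046 over all genes, with 7 positive and 14 negative.

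H1-2 was at 139, 125 and 126 FPKM with the control mimic and at 116, 117 and 106 with the miR-628-3p mimic. Each mimic library lay below each control library, and the log2 fold change was -0.20 (SE 0.062, limma adjusted p = 0.054). H2BC12 was at 364, 356 and 356 FPKM and at 336, 338 and 333 (-0.095, SE 0.045, limma adjusted p = 0.15), again without overlap. H2BC11 was at 31.7, 31.6 and 30.6 FPKM and at 27.8, 29.7 and 25.9 (-0.17, SE 0.059, limma adjusted p = 0.070).

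Across the genes tested in Huh7, which are not independent replicates, fold change and GC content had a rank correlation (Spearman) of -0.72. The GC content was 61.2% for H2BC12, 57.5% for H1-2 and 49.1% for H2BC11. After the GC and length correction the fold changes were 0.17 for H2BC12 and 0.044 for H1-2, so their sign turned, and -0.038 for H2BC11.

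H4C8 was at 18.6, 18.4 and 18.8 FPKM with the control mimic and at 18.7, 14.5 and 18.5 with the miR-628-3p mimic. The groups overlapped, and the log2 fold change was -0.11 (SE 0.092, limma adjusted p = 0.37). H2AC6 was at 223, 207 and 228 FPKM and at 222, 195 and 196 (-0.10, SE 0.068, limma adjusted p = 0.29). H2BC5 was at 37.0, 32.0 and 35.5 FPKM and at 35.1, 32.6 and 34.1 (-0.037, SE 0.064, limma adjusted p = 0.69). H2BC21 was at 2.52, 2.55 and 2.79 FPKM and at 3.13, 3.04 and 2.56 (0.11, SE 0.083, limma adjusted p = 0.34). The other tested genes lay between -0.42 for H4C3 and 0.34 for H1-1, with adjusted p of 0.096 and 0.058.

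Variant histones are made throughout the cell cycle, and their messages mostly carry a poly-A tail. Of 14 genes tested in Huh7 from the list made mostly of such histones, 4 fell and 0 rose, with 2 called by voom. Among those that fell were H2AX, from 17.6 ± 1.54 to 13.6 ± 0.932 FPKM, and H2AJ, from 37.6 ± 1.63 to 31.7 ± 1.78. Of 24 S-phase genes 1 rose and 5 fell, of 25 transcription and processing genes 3 rose and 4 fell, and of 16 decay genes 5 rose and 3 fell. These shares stand beside 21.1% called over all genes. With the GC and length correction 1 of 12452 genes was called in Huh7, so at most 1 of these calls could remain. No test set the lists against the replication-dependent genes.

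The interaction of line and miR-628-3p, fitted over all 12 libraries, tests whether the effect in MHCC97H differed from that in Huh7. Of 16 genes tested 4 were called, 3 higher and 1 lower, against 12.9% of all genes, 7.43% higher and 5.43% lower. The difference was 2.04 for H4C8 (SE 0.22, limma adjusted p = 0.00031), 0.72 for H1-2 (adjusted p = 0.011), 0.47 for H2BC5 (adjusted p = 0.026) and -0.57 for H2BC21 (adjusted p = 0.010), on the log2 scale. For H2BC12 the effects differed by -0.017 (SE 0.11, limma adjusted p = 0.93), and for H2AC6 by 0.36 (SE 0.11, limma adjusted p = 0.054). Across genes the interaction and GC content had a Spearman rho of 0.59. After the GC and length correction the differences were 2.12 for H4C8, 0.53 for H1-2, 0.43 for H2BC5 and -0.59 for H2BC21, all still called, and H2AC6 was called as well, at 0.51 (limma adjusted p = 0.010). H4C8, H1-2 and H2BC21 were called in each of the 19 alternatives, and H2BC5 in 14 of them.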

How the data were processed

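Per the labels' protocols, poly-A RNA was purified with oligo(dT), second strands were marked with dUTP, and sequencing was paired-end. The submitters' processing notes name HISAT2, HISAT and HTSeq with GRCh38, without versions. The deposited FPKM values, made by the authors, cover 60664 genes in 12 libraries. In each library 100% of values, times exon length, were whole multiples of 1 step within 0.01 reads, which gave the reads.

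The test was limma (3.58.1, R 4.3.3) on log2(FPKM + 1). A gene entered a fit where its FPKM averaged 1 or more over the libraries used, with eBayes, a mean-variance trend and Benjamini-Hochberg adjustment over all genes tested. Adding 1 understates the change of low genes. A gene is said to rise, fall or be called at an adjusted p under 0.05. The fit was tested on simulated counts with the same dispersion for all genes and no GC trend. That test does not measure error rates in these libraries. Alternatives changed the pseudocount, filter, scaling, variance model (voom on recovered reads), replicate block, GC and length, the joint fit and the libraries.

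The histone genes, the lists and the alternatives were chosen with earlier results of these data known. Values in every library are given for called genes, up to 12 per comparison by adjusted p, and for the 6 genes with the most reads. Stem-loops were read from GENCODE 29 transcripts and promoters from RefSeq (GRCh38.p14). Python 3.11.15, numpy 2.4.6, pandas 2.3.3 and matplotlib 3.10.9 were used. Chi-square per degree of freedom between libraries of a group was 1.93 to 34.5, so none was counted as a copy. It was 1.93 to 3.50 in the MHCC97H vector group and 8.89 to 34.5 with miR-628-3p, whose libraries were the least alike. In Huh7 it was 2.19 to 9.45 with the control mimic and 4.10 to 10.7 with the miR-628-3p mimic. Replicate numbers were not taken to pair the libraries.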

Additional observations from a re-analysis of the deposited data

Results flagged for a closer look

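For 4 histone genes the effect of miR-628-3p differed between the lines by the interaction test. On the log2 scale, MHCC97H minus Huh7, the difference was 2.04 for H4C8, 0.72 for H1-2, 0.47 for H2BC5 and -0.57 for H2BC21. Line and way of delivery cannot be told apart in this difference.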

How the results depend on the processing

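In MHCC97H H4C8 was called under all 14 alternatives, with log2 fold changes from 1.78 to 2.12. The count of called histone genes, 4 in MHCC97H, was 1 without the expression filter, 1 to 4 with a library left out and 5 with the GC and length correction (H2AC6 added, 0.39, adjusted p = 0.025) or in the joint fit (H2BC18 added). It was 1, H4C8, without vector library 1, 2 or 3 or miR-628-3p library 1. H1-2 was not called with a pseudocount of 0.1 (adjusted p = 0.0502) or median rescaling (0.0563). In Huh7 the count of 0 became 1, H1-1, with a minimum mean of 10 reads in place of 1 FPKM, and 0 to 1 with a library left out (H4C3 without control library 1). For the control libraries the 17 became 31 without the filter and 14 to 17 with a library left out. The interaction count stayed between 3 and 5. Turned signs, none of them called, were H2BC5 in Huh7 with voom (0.0076), the GC and length correction (0.069) and without control library 1 (0.0070; -0.095 to 0.0070 over the libraries left out), H2BC12 and H1-2 in Huh7 with that correction (0.17 and 0.044), and H2BC12 in the interaction with median rescaling (0.011), without vector library 1 (0.0067) and without miR-628-3p vector library 3 (0.091; -0.11 to 0.091 over the libraries left out). The cause was not tested.

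Libraries with the same replicate number did not all deviate together. Correlations of their deviations ran from -0.075 to 0.037 in Huh7, from -0.088 to 0.30 in MHCC97H and from -0.14 to 0.11 between the controls. With a replicate block 2 histone genes, H1-2 and H4C8, were called in MHCC97H, where H2BC21 (adjusted p = 0.063) and H2BC5 (0.080) were not, 0 in Huh7, 3 in the interaction and 17 between the controls. At most 9 reads in any library for 35 of the 65 genes, and 53 genes untested in MHCC97H, limit what could be seen.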
